A study of Mus musculus with 8 samples.

Results

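F-box proteins and cullins, the substrate receptors and scaffolds of the largest group of ubiquitin ligases, were followed by their transcripts in mouse hearts after a fast. Members were all genes whose symbol begins with Fbxo, Fbxl or Fbxw, apart from Fbxo32 and Fbxo40, together with 7 cullins (Cul1, Cul2, Cul3, Cul4a, Cul4b, Cul5 and Cul7), the adaptor Skp1 (Skp1a in older annotation) and the RING subunit Rbx1. The RefSeq gene table names 86 such genes. A probe of the array carried the name of 78 of them, among 18217 named genes in all, and 61 were bright enough to be tested. The other 8 have no probe named here and were not analysed here. The samples were 4 hearts of fasted mice, which had water but no food for 2 days, and 4 hearts of satiated mice on standard pellets. The mice were male C57BL/6J, a standard inbred strain, 9 weeks old, with no transgene or drug. Total RNA of each sample was labelled with Cy3 and hybridised to its own one-colour Agilent whole-genome array, and the comparison asks which transcripts differ after the fast.

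In an SCF ligase, Cul1 holds Skp1 and an F-box protein at one end and the RING protein Rbx1, which recruits the ubiquitin-charged enzyme, at the other. The F-box protein binds the protein to be ubiquitylated, through leucine-rich repeats in the Fbxl class, WD40 repeats in the Fbxw class and other or no recognised domains in the Fbxo class. Most of the other cullins work in the same way with their own receptors, and most cullins are switched on by attachment of the small protein NEDD8. Striated muscle is known for F-box ligases that rise during wasting, of which atrogin-1 (Fbxo32) is the best known.

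Values are log2 signals minus the 75th percentile of the same array, so that 0 is the brightness of that percentile. They can be compared between hearts for 1 probe and not between probes. Arrays lay on 2 slides, replicates 1 and 2 of both groups on slide 1 and replicates 3 and 4 on slide 2. On slide 1, 66.7% to 68.9% of probes were well above background on an array, and on slide 2, 54.4% to 55.6%. The lowest level at which any probe was well above background was -5.94 to -5.65 on slide 1 and -4.47 to -4.22 on slide 2. A dim probe could thus be above background on slide 1 and not on slide 2. All 10 cardiomyocyte markers were above background on every array, as a heart sample requires, and 1 of them, the cardiac actin Actc1, was lower in fasted hearts. The array of fasted replicate 3 correlated least with the other arrays of its group (mean r = 0.974). Satiated replicate 1 stood apart in the tested transcripts of fast skeletal muscle except Myh4. Tnnt3, the fast troponin T, lay at -3.18 to -2.53 in the fasted hearts. It lay at 3.50 in satiated replicate 1 and at -4.34 to -3.92 in the other 3 satiated hearts. Myh2, Actn3 and Tnni2 were highest in satiated replicate 1 too. Myh4 lay at 7.64 there, against 7.24 to 7.75 in the other satiated and 7.26 to 7.88 in the fasted hearts. Satiated replicates 3 and 4, both on slide 2, stood apart in the fat cell transcripts Plin1, which coats lipid droplets, and Retn. Plin1 lay at -0.91 to -0.05 in the fasted hearts, and at 1.77 and 2.32 in those 2 and -0.58 and 0.41 in the other satiated hearts. Retn lay at -3.75 to -2.39 in the fasted hearts, and at -0.29 and 0.40 in those 2 and -2.25 and -2.08 in the other satiated hearts. For Adipoq and Cfd, the other fat cell markers, satiated replicate 3 lay within the range of the fasted hearts. Adipoq lay at 2.80 and 3.51 in satiated replicates 3 and 4, and at 1.88 to 2.84 in the fasted hearts. Cfd lay at 5.19 and 6.09 in satiated replicates 3 and 4, and at 4.60 to 5.85 in the fasted hearts. Of 7 fibroblast markers, 1 was higher and 5 were lower in fasted hearts, with a median log2 fold change of -0.98. The summed linear level of the 7, in multiples of the array's 75th percentile, was 240 to 289 in fasted and 247 to 282 in satiated hearts. Dcn, the one that rose, gave 201 to 260 of it in fasted and 141 to 158 in satiated hearts, and the other 6 summed to 29.1 to 63.1 in fasted and 88.7 to 141 in satiated hearts. No marker of endothelial cells (6), macrophages (5), lymphocytes (4), red cells (2), fat cells (4) or skeletal muscle (5) was called, and 1 of 4 smooth muscle markers was lower. The part of other cell types in the results below was not tested, and in whole hearts fewer cells of a type cannot be told apart from less RNA per cell.

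Of the 61 members tested, 13 (21.3%) passed limma's test between fasted and satiated hearts (p under 0.05 after Benjamini-Hochberg adjustment); after the fast 8 were higher and 5 lower. Over all 20203 genes and unnamed probes tested, 20.2% were called, 9.82% higher and 10.3% lower, so the share of members called lay close to that background. In fasted hearts the receptors Fbxo31, Fbxo36, Fbxo44, Fbxl4, Fbxo38 and Fbxw2 and the scaffolds Cul4b and Cul3 rose, and the receptors Fbxl22, Fbxw7, Fbxo10 and Fbxo25 and the scaffold Cul5 fell. The change reached 2-fold in 4 of them, Fbxo31, Cul4b and Fbxo36 upward and Fbxl22 downward, where 7.38% of everything tested was called at that size. The median log2 fold change was 0.03 over the members and -0.0042 over everything tested, and the median absolute change was 0.311 and 0.318. Fasted and satiated values did not overlap for 19 members (31.1%), against 27.6% of everything tested, and all 13 called members were among these 19. That each of the 13 changed in the same direction on both slides follows from this lack of overlap and is no further evidence.

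The calls rest on few hearts. Fbxl22, Fbxo31, Fbxo36, Cul4b, Fbxl4 and Fbxo10 were called in all 8 fits that left out 1 heart, Fbxo25 in 7, Cul3 in 5, Cul5, Fbxw7, Fbxo38 and Fbxo44 in 2 each, and Fbxw2 in none. Leaving out 1 heart gave 7 to 12 called members. There were 8 without fasted replicate 1, 8 without satiated replicate 1, 7 without satiated replicate 2 and 7 without satiated replicate 3. Over everything tested the same fits gave 2495 to 3690 calls, against 4073 with all 8 hearts, so the loss was not particular to the members. Without fasted replicate 3, whose array correlated least with its group, 9 members were called. With the slide as a block 22 members (36.1%) were called, 12 higher and 10 lower, where 35.5% of everything tested was called. With the replicate number as a block there were 23 (37.7%), 14 higher and 9 lower, where 32.1% of everything was called. Both sets included all 13.

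**Figure D1:**
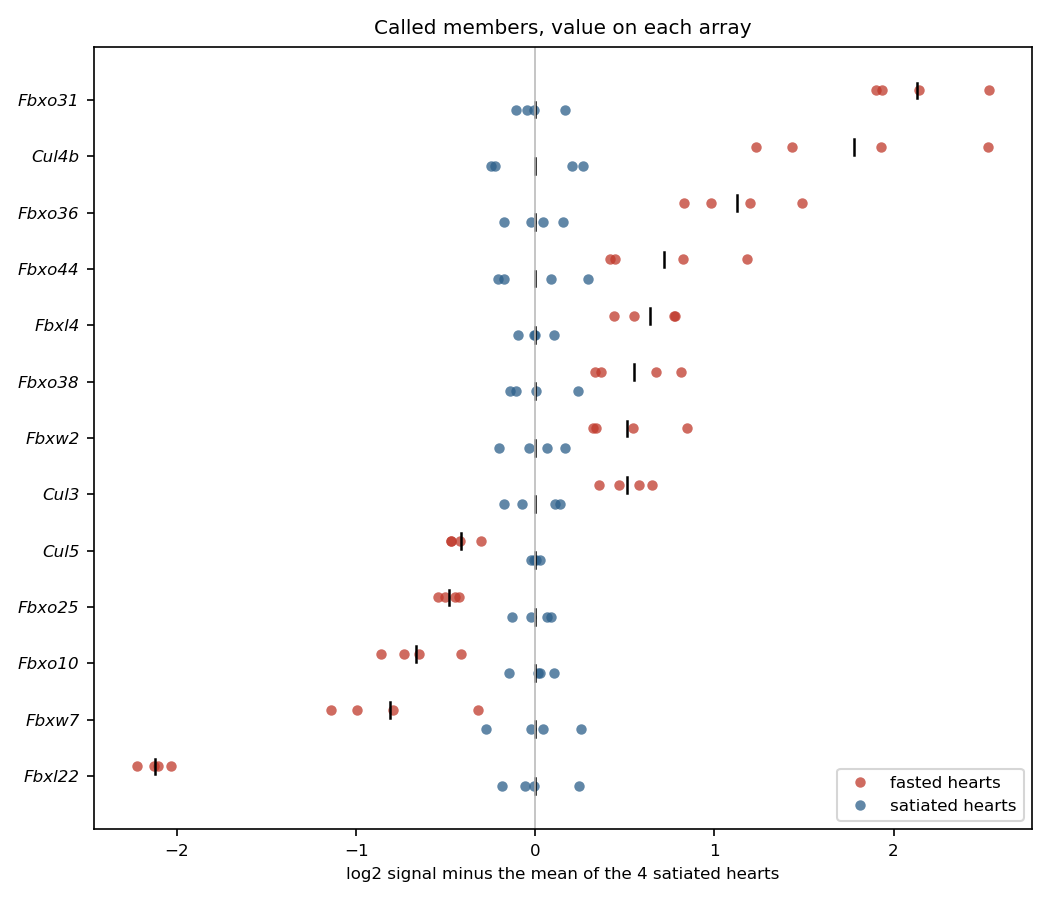
Value of each of the 13 called members on every array, as log2 signal minus the mean of the 4 satiated hearts (x axis), with fasted hearts above satiated hearts in each row and a short black line at each group's mean. No fasted point overlaps the satiated points of its own gene, and the gap between the groups is widest for Fbxl22 and Fbxo31 and narrowest for Fbxw7.

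Fbxl22 and Fbxo31 changed most among the receptors, in opposite directions. Fbxl22 encodes a heart- and muscle-enriched F-box protein that sits at the sarcomere's Z-disc. Its log2 values were 0.36, 0.26, 0.38 and 0.46 in the fasted hearts, against 2.30, 2.48, 2.73 and 2.43 in the satiated hearts. All 4 fasted hearts lay together and below every satiated heart, and Fbxl22 fell 4.35-fold (adjusted p = 0.000131), a log2 fold change of -2.12 ± 0.13, where the error is the SE with 4 hearts a group, as in all that follows. Its second probe was lower too (-3.32 ± 0.36), although that probe was above background on only 2 of the 4 fasted arrays.

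Fbxo31 encodes a receptor known to direct cyclin D1 to degradation after DNA damage. Fbxo31 gave 6.01, 5.80, 6.40 and 5.77 in the fasted hearts and 4.03, 3.82, 3.86 and 3.76 in the satiated hearts. Fasted replicate 3 was the highest, every fasted heart lay well above every satiated one, and Fbxo31 rose 4.37-fold (2.13 ± 0.16; adjusted p = 0.00033). Without fasted replicate 3 the log2 fold change was 1.99.

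Fbxo36 is a little-studied F-box gene. Values of Fbxo36 were -0.73, -0.44, -0.95 and -1.10 in the fasted hearts and -1.96, -1.78, -2.11 and -1.89 in the satiated hearts. The groups did not overlap, and Fbxo36 rose 2.18-fold (1.13 ± 0.16; adjusted p = 0.00327), by 1.28 on slide 1 and 0.97 on slide 2.

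The sequences upstream of the start of the 4 members that changed at least 2-fold are shown so that the regions in front of the genes can be compared. They are from RefSeq, build GRCm38.p6, on the strand of the gene. Fbxl22 is at chr9:66514594-66514843 (minus strand), Fbxo36 at chr1:84839591-84839840 (plus strand) and Cul4b at chrX:38576197-38576446 (minus strand), 250 bases each. For Fbxo31, chr8:121578865-121579056 (minus strand), only the 192 bases outside the annotated extent of the gene are given. Capitals mark GGGCGG, the GC box, and CCAAT, on either strand.
Fbxl22: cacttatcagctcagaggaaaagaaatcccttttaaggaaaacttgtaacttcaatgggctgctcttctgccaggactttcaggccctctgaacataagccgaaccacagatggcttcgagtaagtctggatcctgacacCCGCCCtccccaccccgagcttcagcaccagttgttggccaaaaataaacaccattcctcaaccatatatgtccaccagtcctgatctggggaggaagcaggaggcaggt
Fbxo31: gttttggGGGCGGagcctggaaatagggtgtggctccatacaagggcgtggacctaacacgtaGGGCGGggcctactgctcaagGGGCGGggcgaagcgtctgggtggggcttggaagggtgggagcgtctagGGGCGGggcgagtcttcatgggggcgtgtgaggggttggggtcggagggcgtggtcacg
Fbxo36: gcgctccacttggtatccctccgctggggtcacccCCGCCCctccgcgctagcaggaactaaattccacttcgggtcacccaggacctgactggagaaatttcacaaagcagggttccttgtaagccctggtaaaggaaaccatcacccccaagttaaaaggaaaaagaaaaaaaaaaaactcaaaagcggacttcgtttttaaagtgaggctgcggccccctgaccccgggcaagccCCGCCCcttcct
Cul4b: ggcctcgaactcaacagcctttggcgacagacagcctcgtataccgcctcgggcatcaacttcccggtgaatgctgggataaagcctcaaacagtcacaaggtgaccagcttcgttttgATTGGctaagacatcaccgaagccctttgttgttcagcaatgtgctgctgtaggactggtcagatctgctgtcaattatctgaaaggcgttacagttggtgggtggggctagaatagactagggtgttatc
Fbxo31 held 4 GC boxes in 192 bases with a GC content of 67.2%, Fbxo36 held 2, Fbxl22 held 1 and Cul4b held none of them but 1 CCAAT. The GC content was 50.4% for Fbxl22, 54.4% for Fbxo36 and 50.8% for Cul4b. Over the 250 bases before each start, GGGCGG stood in 12 of 17 windows of the called members, in 42 of 71 windows of the tested members and in 32.7% of all 32851 windows. CCAAT stood in 2 of the 17, 14 of the 71 and 33.8% of all. Response elements were searched on both strands as exact letters. TGTTTAC (FoxO, 3.17% of all windows), ACANNNTGT (glucocorticoid receptor core, 5.84%) and TGACGTCA (cAMP response element, 1.55%) stood in none of the 17 windows of called members. CACGTG, the E-box (6.02% of all windows), stood in 2 of the 17, both of Fbxo10. A match is no evidence of a bound site, and windows, some genes having several, existed for 11 of the 13 called members.

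The remaining called receptors changed by less than 2-fold. Fbxl4 encodes a mitochondrial F-box protein known to restrain mitophagy. Fbxl4 lay at 0.65, 0.87, 0.87 and 0.53 in the fasted hearts and at 0.09, 0.20, -0.0016 and 0.08 in the satiated hearts. Every fasted heart lay above every satiated heart, and Fbxl4 rose 1.56-fold (0.64 ± 0.12; adjusted p = 0.0095).

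Fbxo10 encodes a receptor for the anti-apoptotic protein BCL2. Fbxo10 gave 0.75, 1.07, 0.62 and 0.83 in the fasted hearts, against 1.33, 1.59, 1.51 and 1.5 in the satiated hearts, without overlap, and it fell 1.58-fold (-0.66 ± 0.13; adjusted p = 0.0106). Fbxo25 is the closest relative of Fbxo32 and is expressed in striated muscle. Fbxo25 was at 2.23, 2.15, 2.11 and 2.21 in the fasted hearts and 2.74, 2.72, 2.53 and 2.63 in the satiated hearts. The fasted hearts lay close together and below all satiated hearts, and Fbxo25 fell 1.4-fold (-0.48 ± 0.10; adjusted p = 0.0155).

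Fbxw7 is the WD40 receptor for cyclin E, Myc and Notch. Fbxw7 had values of 1.05, 1.53, 0.85 and 0.71 in the fasted hearts and 1.89, 2.10, 1.82 and 1.57 in the satiated hearts. Fasted replicate 2 came within 0.04 of satiated replicate 4, so the groups only just stayed apart, and Fbxw7 fell 1.76-fold (-0.81 ± 0.20; adjusted p = 0.0251). Its second probe fell as well, with -1.27, -0.96, -1.25 and -1.29 in the fasted hearts and -0.17, -0.22, -0.24 and -0.35 in the satiated hearts (-0.95 ± 0.12; adjusted p = 0.00183 over all kept probes).

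Fbxo38, Fbxo44 and Fbxw2 rose by small amounts that each stayed under the threshold in at most 2 of the 8 fits with 1 heart left out. Fbxo38, a receptor known from T cells, where it acts on PD-1, gave 2.81, 2.77, 3.25 and 3.11 in the fasted and 2.33, 2.30, 2.44 and 2.67 in the satiated hearts (0.55 ± 0.15; adjusted p = 0.0391). Fbxo44, of the subfamily of Fbxo2 and Fbxo6, gave -1.76, -1.74, -1.0 and -1.35 in the fasted and -2.39, -2.35, -2.09 and -1.89 in the satiated hearts (0.72 ± 0.21, adjusted p = 0.0418). Fbxw2, a WD40 receptor, gave 0.94, 0.95, 1.46 and 1.16 in the fasted and 0.58, 0.41, 0.78 and 0.68 in the satiated hearts (0.51 ± 0.15; adjusted p = 0.0494). In all 3 the fasted hearts lay above the satiated hearts without overlap, and fasted replicate 3 was the highest heart.

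By class, 6 of 27 Fbxo genes were called (4 higher, 2 lower; median log2 fold change 0.11), 2 of 16 Fbxl genes (1 each way; median -0.11) and 2 of 9 Fbxw genes (1 each way; median 0.03). The 48 members that were not called, the 6 of the scaffold among them, had log2 fold changes between -0.84 and 0.63, 42 of them within 0.5 of 0. Of the subfamily of Fbxo2 and Fbxo6, Fbxo44 rose, while Fbxo6 (0.36 ± 0.17), Fbxo17 (0.34 ± 0.24), Fbxo2 (-0.29 ± 0.35) and Fbxo27 (-0.46 ± 0.18) did not pass the test. Fbxo6 gave 4.05, 4.03, 4.77 and 4.28 in the fasted and 3.93, 3.85, 3.96 and 3.97 in the satiated hearts, apart but by only 0.06.

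Fbxo30 and Fbxo21, members known from wasting skeletal muscle, did not pass the test on their brightest probes. Fbxo30, also called MUSA1, had a log2 fold change of 0.26 ± 0.17, with 1.29, 1.14, 0.65 and 0.94 in the fasted and 0.78, 0.92, 0.51 and 0.77 in the satiated hearts, which overlapped. A second Fbxo30 probe gave -0.14, -0.89, -3.34 and -0.42 in the fasted and 0.31, 0.41, 0.20 and 0.32 in the satiated hearts. Its fasted hearts lay below all satiated ones, fasted replicate 3 far below, and it was not called (-1.51 ± 0.63). Fbxo21, also called SMART, had 4.03, 3.77, 3.62 and 3.98 in the fasted and 3.56, 3.56, 3.32 and 3.57 in the satiated hearts, apart by 0.06 (0.35 ± 0.13; adjusted p = 0.102). Another Fbxo21 probe was called, at -2.25, -2.22, -1.19 and -1.89 in the fasted and -2.91, -3.33, -2.73 and -2.88 in the satiated hearts (1.08 ± 0.25; adjusted p = 0.0198 over all kept probes). Atrogin-1 itself, Fbxo32, rose 3.24-fold (1.70 ± 0.29; adjusted p = 0.00611), with 2.95, 3.34, 4.31 and 3.26 in the fasted and 1.93, 1.43, 1.66 and 2.05 in the satiated hearts. Fbxo40 was not analysed here.

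Fbxl5, Fbxo7 and Fbxw11, picked for their known roles, also stayed uncalled. Fbxl5, the iron-sensing receptor for iron regulatory protein 2, gave 0.99, 1.05, 0.81 and 0.97 in the fasted and 0.70, 0.76, 0.77 and 0.77 in the satiated hearts, apart by 0.04 (0.20 ± 0.10; adjusted p = 0.212). Fbxo7, which acts with Parkin in mitochondrial quality control, had 0.77, 0.99, 2.07 and 1.44 in the fasted and 0.49, 0.25, 0.91 and 1.09 in the satiated hearts, which overlapped (0.63 ± 0.31; adjusted p = 0.191). Fbxw11, the second beta-TrCP, was at 0.14 ± 0.18. The lowest uncalled value was that of Fbxl13, -0.84 ± 0.38, which was above background on 2 of the 4 fasted and all 4 satiated arrays.

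With the slide as a block, 9 further members were called, among them Cul1 (0.44), Fbxo42 (0.44) and Fbxo7 (0.63) higher and Fbxo45 (-0.34), Cul2 (-0.37), Fbxo27 (-0.46), Fbxl15 (-0.69) and Fbxl8 (-0.63) lower. With the replicate number as a block, 8 of these 9 were called, all but Fbxo27.

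**Figure D2:**
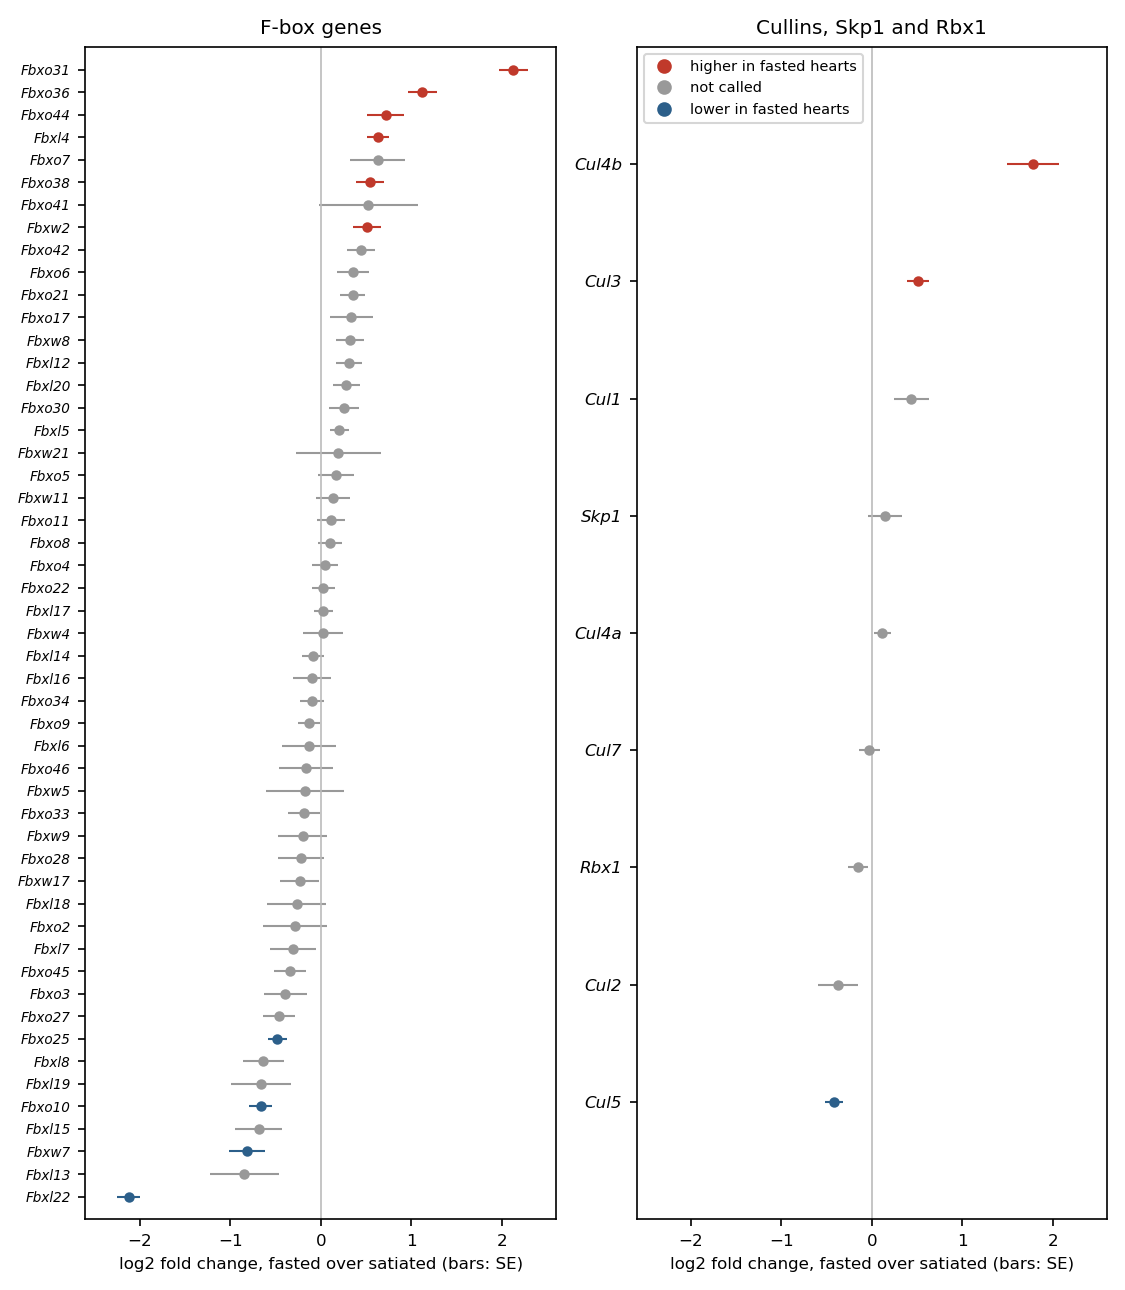
Log2 fold change of each tested member, fasted over satiated hearts (x axis), with its SE as a bar, for 51 F-box genes (left) and for the 7 cullins, Skp1 and Rbx1 (right), coloured by call. Most members lie within 0.5 of 0, and Fbxo31 at 2.13, Cul4b at 1.78 and Fbxl22 at -2.12 stand farthest out.

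Among the scaffolds, Cul4b and Cul3 rose and Cul5 fell, while Cul1, the scaffold of the F-box proteins themselves, did not pass the test. Cul4b, an X-linked cullin that works with the adaptor DDB1, had values of 2.77, 2.57, 3.86 and 3.26 in the fasted hearts and 1.11, 1.09, 1.54 and 1.60 in the satiated hearts. All fasted hearts lay above all satiated hearts, with fasted replicate 3 the highest, and Cul4b rose 3.43-fold (1.78 ± 0.29; adjusted p = 0.00477). Without fasted replicate 3 the log2 fold change was 1.53. Its close relative Cul4a gave 2.71, 2.63, 2.64 and 2.67 in the fasted and 2.58, 2.51, 2.57 and 2.53 in the satiated hearts, apart but by little (0.12 ± 0.10; adjusted p = 0.442).

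Cul3, the scaffold for BTB-domain receptors, was at 2.27, 2.09, 2.20 and 1.98 in the fasted hearts and 1.76, 1.73, 1.55 and 1.45 in the satiated hearts. The groups did not overlap, and Cul3 rose 1.43-fold (0.51 ± 0.13; adjusted p = 0.0237). Cul5, the scaffold for SOCS-box receptors, was at 3.12, 3.07, 3.07 and 3.24 in the fasted hearts and 3.53, 3.54, 3.57 and 3.52 in the satiated hearts. The satiated hearts lay within a narrow band above all fasted hearts, and Cul5 fell 1.33-fold on this probe (-0.41 ± 0.10; adjusted p = 0.0224).

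Cul1 gave 1.94, 1.86, 1.57 and 1.44 in the fasted and 1.57, 1.52, 1.0 and 0.97 in the satiated hearts (0.44 ± 0.19; adjusted p = 0.152). On each slide both fasted hearts lay above both satiated hearts, whereas over both slides the groups overlapped, and with the slide as a block Cul1 was called (adjusted p = 0.00605). Cul2, the scaffold that carries the von Hippel-Lindau receptor, gave -0.28, -0.29, -0.97 and -0.93 in the fasted and -0.13, 0.07, -0.43 and -0.49 in the satiated hearts (-0.37 ± 0.22; adjusted p = 0.276, and 0.0172 with the slide as a block). Cul7 was at 2.6, 2.74, 2.80 and 2.85 in the fasted and 2.73, 2.66, 2.82 and 2.89 in the satiated hearts, which overlapped throughout (-0.03 ± 0.11; adjusted p = 0.905).

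The 2 subunits common to SCF ligases did not pass the test. Skp1 gave 4.37, 4.4, 4.06 and 3.81 in the fasted and 4.25, 4.23, 3.81 and 3.74 in the satiated hearts (0.15 ± 0.19; adjusted p = 0.638). Rbx1 gave 5.06, 4.95, 5.16 and 5.0 in the fasted and 5.29, 5.14, 5.24 and 5.09 in the satiated hearts (-0.15 ± 0.11; adjusted p = 0.374). Both sets of values overlapped.

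For 30 members several probes were bright enough, 72 probes in all, so the readings of different probes of a gene could be compared. Of the 13 called members, 5 had only 1 bright probe: Fbxo31, Fbxo36, Fbxl4, Cul3 and Fbxo38. Their calls could not be set against another probe. The array annotation does not say which isoform each probe reads. No member had probes called in opposite directions. The log2 fold change of each further probe was set against that of the gene's brightest probe on the same arrays, a test added after the data were seen. Of 42 such pairs of members 4 differed (9.52%), in Cul4b, Cul5, Fbxo4 and Fbxo42, where 11.2% of all 6277 pairs on the array differed. These counts moved with single hearts: 2 pairs differed without fasted replicate 1 or without satiated replicate 2, 3 or 4.

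Cul4b was the widest case. Its second probe carries another RefSeq transcript accession of the gene and gave 0.13, 0.44, -0.59 and 0.14 in the fasted and 0.11, 0.29, -0.07 and 0.23 in the satiated hearts. These values overlapped (-0.11 ± 0.22), and fasted replicate 3 was the lowest of the 8 hearts here but the highest on the brightest probe. The log2 fold changes of the probes differed by -1.89 ± 0.47 (adjusted p = 0.0398 over all pairs), so the rise of Cul4b was read by 1 of its 2 probes. Leaving out single hearts kept the difference between -2.21 and -1.43, but the call was lost in 6 of the 8 such fits, all but those without fasted replicate 2 or 3, and also with no filter on dim probes. With the mean of both probes the log2 fold change of Cul4b was 0.84 (adjusted p = 0.00293).

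Cul5 had 4 probes. Besides the brightest one at -0.41, they gave 0.02 ± 0.15, -0.36 ± 0.15 and 0.41 ± 0.13, none of them called. The last gave -1.94, -1.96, -1.58 and -2.06 in the fasted and -2.24, -2.25, -2.35 and -2.32 in the satiated hearts, so that all fasted hearts lay above all satiated hearts, opposite to the brightest probe. The difference from the brightest probe was 0.82 ± 0.14 (adjusted p = 0.0104 over all pairs). With the mean of all 4 probes Cul5 was not called (-0.09; adjusted p = 0.598), so the call rests on its brightest probe.

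Fbxo4, a receptor linked to cyclin D1, was not called on its brightest probe, with 2.08, 1.86, 2.45 and 2.16 in the fasted and 2.07, 2.04, 2.00 and 2.25 in the satiated hearts (0.05 ± 0.15). Its second probe gave -4.99, -4.66, -4.40 and -4.58 in the fasted and -3.12, -3.35, -3.02 and -2.97 in the satiated hearts (-1.54 ± 0.16; adjusted p = 0.00092 over all kept probes). It was above background on 2 of the 4 fasted and all 4 satiated arrays, and the probes differed by -1.59 ± 0.14 (adjusted p = 0.00147 over all pairs). With normexp background correction that difference was -0.38 and was not called. Fbxo42 differed less, at 0.44 ± 0.16 and -0.05 ± 0.20 on its probes (adjusted p = 0.0383 over all pairs). That call was lost in 7 of the 8 fits with 1 heart left out, all but the one without fasted replicate 4, with normexp and with no filter on dim probes, the difference lying between -0.58 and -0.42.

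Counted one by one, 19 of the 103 bright probes of the members were called, 10 higher and 9 lower, where 21.1% of all 26480 bright probes were called. Besides Fbxo4 and Fbxo21, Fbxl14 (0.78 ± 0.22) and Fbxl17 (-0.64 ± 0.18) were called by a further probe alone. That probe of Fbxl14 was above background on 3 of the 4 fasted and 2 of the 4 satiated arrays. For Fbxl22 and Fbxw7 the second probe was called in the direction of the first. For Fbxo10 (-0.67 ± 0.24), Fbxo25 (-0.88 ± 0.34) and Fbxo44 (0.50 ± 0.21) it had the same sign without a call. That probe of Fbxo25 was above background on 2 of the 4 fasted and 2 of the 4 satiated arrays. The further probes of Fbxw2, at 0.56 ± 0.18 and 0.14 ± 0.22, also had the sign of the brightest without a call.

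**Figure D3:**
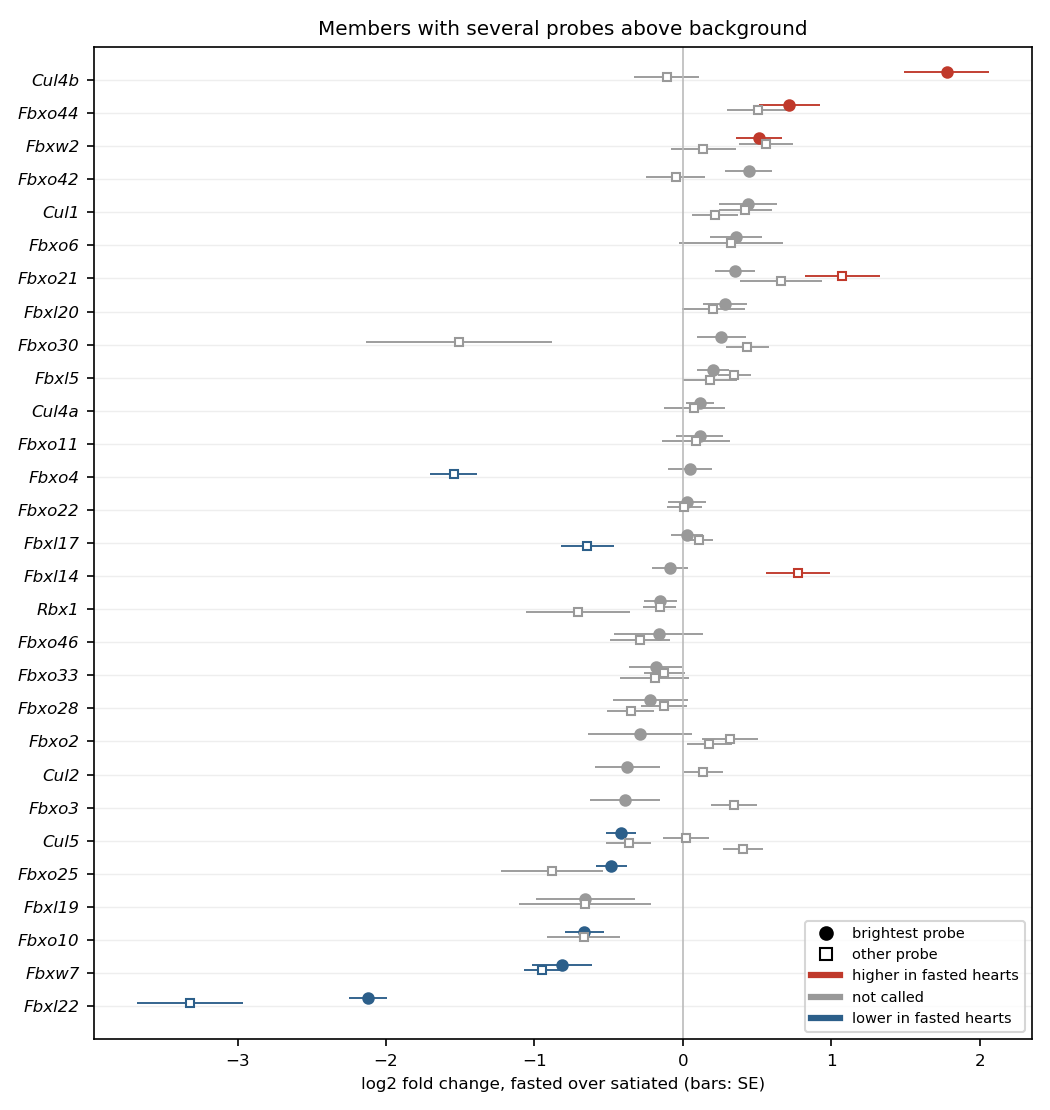
Log2 fold change, fasted over satiated hearts (x axis), with its SE for every bright probe of 29 members with several such probes, the brightest as a filled circle and the others as open squares, coloured by call. Probes of Fbxw7 and Fbxl22 lie on 1 side of 0, whereas those of Cul4b (1.78 and -0.11), Cul5 (-0.41 to 0.41) and Fbxo4 (0.05 and -1.54) lie apart.

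The 17 members with a probe that was too dim to test were Fbxl2, Fbxl21, Fbxo15, Fbxo16, Fbxo24, Fbxo39, Fbxo43, Fbxo48 and 9 Fbxw genes of the series Fbxw13 to Fbxw26. Of these, 9 were above background on no array, and no level is given for them. Fbxl21 was above background on 2 of the 4 fasted arrays, both of slide 1, and on no satiated array, with both of its probes. Its fasted mean was -5.53 on both probes. The satiated group allows only a bound of -5.09, the mean over its arrays of the lowest level at which any probe was well above background, and since the fasted mean did not exceed it no fold is given. Fbxo39 was above background on 1 array, that of fasted replicate 3, at -2.05, against -7.88 to -6.80 in the other fasted and -7.96 to -6.61 in the satiated hearts.

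Around the ligases, 26 genes were tested, mostly of the NEDD8 cycle and of cullin exchange. The list also held the ubiquitin-conjugating enzymes Cdc34 and Ube2r2, neither of them called. None of the 26 rose and 6 fell (23.1%), with a median log2 fold change of -0.05. Of everything tested 20.2% was called in either direction, 9.82% higher and 10.3% lower. Whether the list differed from that background was not tested. Uba3, the catalytic subunit of the enzyme that activates NEDD8, gave 2.55, 2.55, 2.44 and 2.58 in the fasted and 3.12, 3.17, 3.19 and 3.12 in the satiated hearts, far apart for their spread, and fell 1.53-fold (-0.62 ± 0.10; adjusted p = 0.00458). Rnf7, the RING partner of Cul5, lay at 4.13 to 4.33 in the fasted and 4.69 to 4.81 in the satiated hearts and fell 1.43-fold (-0.52 ± 0.10; adjusted p = 0.0112). Cand2, a muscle-enriched cullin exchange factor, fell 1.89-fold (-0.92 ± 0.18; adjusted p = 0.0115), and Dcun1d2, which helps to attach NEDD8 to cullins, fell 2.18-fold (-1.13 ± 0.22; adjusted p = 0.0095). Cops7a, of the signalosome that removes NEDD8, and Senp8, the protease that matures it, were the other 2. None rose at an unadjusted p under 0.05 either. When the slide was taken as a block, 2 of the 26 were higher and 8 lower, where 35.5% of everything tested was called.

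Of 61 tested receptors and adaptors of the other cullins 7 rose and 8 fell (24.6%; median -0.06), a share near the 20.2% of everything tested. With the smallest p among them, Asb10, of the SOCS-box family that works with Cul5, fell (-1.29 ± 0.19), and Dcaf10, a candidate Cul4 receptor (0.84 ± 0.13), and the Cul3 receptors Klhl22 (0.75 ± 0.14) and Klhl24 (1.2 ± 0.22) rose. Of 33 genes whose proteins are known substrates of F-box ligases 5 rose and 2 fell (21.2%; median -0.04), also near the 20.2%. Cdkn1a, the cell cycle inhibitor p21, rose (3.31 ± 0.17), as did Myc (1.78 ± 0.28), a substrate of Fbxw7, while Ccnd2, cyclin D2, fell (-1.34 ± 0.11), as did Mycn (-2.51 ± 0.40). These are transcripts, and protein levels were not measured. None of 5 F-box genes under other symbols was called, Lmo7 having the smallest p (-0.18 ± 0.13; adjusted p = 0.4). None passed at an unadjusted p under 0.05, nor was any called with the slide or the replicate number as a block.

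Ligases known from muscle wasting and turnover were called in 4 of 11 cases (36.4%; median -0.18). Besides Fbxo32, Trim63, the ligase MuRF1 (1.24 ± 0.26), and its relative Trim54 (0.82 ± 0.14) rose, while Trim32 fell (-0.49 ± 0.13). Adjusted p-values of these 4 lay between 0.0059 and 0.0349. The share called exceeded the 20.2% of everything tested, in a list of 11 chosen with earlier results known.

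**Figure D4:**
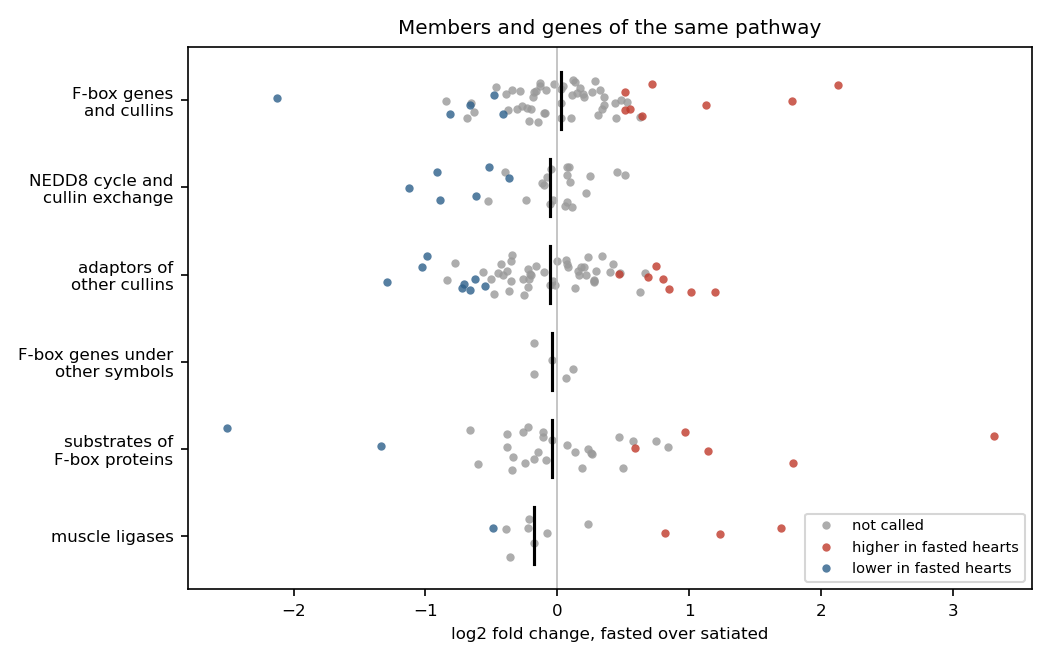
Log2 fold change, fasted over satiated hearts (x axis), of each tested gene of the members and of the 5 surrounding lists, with the list median as a black bar and points coloured by call. Medians lie between -0.18 and 0.03, and called genes of the NEDD8 list lie below 0 only.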

How the data were processed

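Total RNA of 8 hearts was read on 1 one-colour Agilent array each. The deposited scanner tables hold linear spot intensities from which Agilent Feature Extraction had taken off the background, per the file headers, and no step had made arrays comparable. The headers name versions 10.5.1.1 (slide 1) and 10.7.3.1 (slide 2), and the submitters' processing notes name 9.1. A deposited series-wide table of linear ratios, made in a way not given in the sources used here, served as an alternative.

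Control and outlier spots were left out, spots of a probe averaged, and values put on the log2 scale and set relative to each array's 75th percentile. Of 41174 probes, 26480 stood well above background on 4 or more of the 8 arrays and were kept. Probes were named through RefSeq accessions of assembly GRCm38.p6, and each gene was represented by its brightest kept probe. Fasted and satiated hearts were compared in limma 3.58.1 under R 4.3.3 (lmFit, then eBayes), two-sided, with Benjamini-Hochberg adjustment over all 20203 genes and unnamed probes. The fit was tested on simulated data. The labels number the hearts of a group and do not state that each came from a separate mouse, so the p-values speak only for the spread among these samples, which may be technical. The number of arrays, 4 a group, limits the precision. No array value of a member was missing.

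Same-numbered hearts deviated together from their group means (correlations 0.331 to 0.493). Crossed hearts of the same slide did so too (0.291 to 0.522), and hearts of different slides had -0.531 to -0.284. The labels name no litter or day shared by a number. The main fit did not pair the hearts, and the replicate number was a block only in an alternative fit.

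Every called member, every cullin, Skp1 and Rbx1 are named, with up to 4 called genes of smallest p from each list. Uncalled receptors were picked for their known roles, after their values were seen. The members, lists and tests were chosen with earlier results of these data known, and the probe comparison and the GC box and CCAAT searches were added after the data were seen. Alternatives were normexp background correction (offset 50, on the median spot signal, chosen after seeing the data), quantile normalization, other filters on dim probes, slide and replicate number as blocks, each slide alone, the deposited ratios, the mean of all kept probes and leaving out each heart. Of the tested members, 1 is counted but not reported by name or drawn by name here. Figures were drawn with matplotlib 3.10.9.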

Additional observations from a re-analysis of the deposited data

Results flagged for a closer look

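Dcun1d2, which helps to attach NEDD8 to cullins, had 1 fasted heart far from the others. Fasted replicate 3 lay at 2.15, against 2.99 to 3.16 in the other 3 fasted hearts and 3.92 to 4.02 in the satiated hearts, and its gap to the next fasted heart was 0.833 of the range of the group. Without that heart Dcun1d2 was still lower in fasted hearts (-0.90; adjusted p = 0.00216 in limma). It was the only one of 72 groups of 4 hearts, over 36 genes, to stand out in this way, and about 1 in 20 groups does so by chance.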

How the results depend on the processing

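The 13 called members (8 higher, 5 lower, 4 of them at 2-fold), the 4073 calls in all, 32 list genes, 19 member probes and 4 differing probe pairs moved most with the slide and the filter. With the slide as a block they became 22 members (10 lower), 7177 in all, 51 list genes, 41 probes and 12 pairs, and with the replicate block 23 (14 higher, 9 lower), 6486, 47, 39 and 9. Slide 1 alone gave 5 members (4 higher, 1 lower), 1883, 14, 9 and 7. Slide 2 alone gave 0 members (0 higher, 0 lower, 0 at 2-fold), 1 in all, 0 list genes, 0 probes and 0 pairs in limma, though at an unadjusted p under 0.05 there were 17 of 61 members, 11 of the 13 called ones among them, 5333 in all, 36 of 136 list genes, 30 probes and 9 pairs. With no filter on dim probes, where more probes were tested, 6 members were called (4 higher, 2 lower), 2225 in all, 18 list genes, 11 probes and 2 pairs, and the 6 were those called in every fit with 1 heart left out. The deposited ratios called 9 of the 13, 5 higher. Leaving out each heart gave 7 to 12 members (4 to 7 higher, 2 to 5 lower, 4 to 5 at 2-fold), 2495 to 3690 in all, with 2520 without satiated replicate 2 and 2495 without satiated replicate 4, 20 to 31 list genes, 10 to 18 probes and 2 to 6 pairs; without satiated replicate 1, the heart high in fast skeletal muscle transcripts, 8 members were called. Normexp, chosen after seeing the data, called 14 members and put Fbxo36 under 2-fold (0.85), quantile normalization called 12, and the stricter filter and the mean of all probes 13 each. The median of the members stayed between -0.02 and 0.09. Cul7, never called, ran from -0.064 to 0.023 when a heart was left out and turned positive without fasted replicate 1 (0.023) and without satiated replicate 4 (0.013). Among the genes named by rule, 538 values kept their side of the threshold, 103 lost a call, 4 gained one and 2 turned. The causes were not tested.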
